A study of Mus musculus with 4 samples.

Results

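The genes described here encode 35 proteins of the mitotic spindle, the kinetochore and cytokinesis, the last step of cell division, together with a few further proteins of mitosis. They were chosen by name, with earlier results of these data known, and each was read from its probe set of highest mean log2 signal. All 35 were found among 18193 named genes. The RNA came from 3T3 cells, a line of fibroblasts from mouse embryos that divides in culture without limit. All cells grew for 24 h at low density in normal medium and were then held overnight in 0.5% serum. The 4 groups, with 1 array each, were basal cells harvested at that point and cells exposed to TNF (tumour necrosis factor, a cytokine of inflammation) for 0.5 h, 2 h or 12 h. The labels give 10 ng/ml TNF for 0.5 h and 12 h; the 2 h array is named as TNF by its title and source, while its treatment text repeats that of the basal array, with no TNF and no concentration. The labels name no genetic change in any group. With 1 array per group there is no spread between replicates, and 0 tests were run.

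At mitosis the kinetochore, a protein assembly built on the centromere, ties each chromosome to microtubules, and the spindle, an array of microtubules focused at its poles, moves the chromosomes apart. A contractile ring of actin and myosin, placed by the central spindle, then cuts the cell in 2. In cycling cells the RNAs of most of these proteins accumulate in late S, G2 and M phase and are low in G1 and in resting cells. These RNAs are common readouts of how many cells in a culture are dividing, and in fibroblasts most are known to be lower when serum is scarce.

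No array of cells kept in 0.5% serum for 12 h more without TNF was analysed here, so TNF and added time in low serum cannot be told apart. The 4 genes taken as a check that TNF acted, Nfkbia, Tnfaip3, Cxcl1 and Ccl2, were at least 2-fold above basal at every time; the NF-kB inhibitor gene Nfkbia had signals of 1843 (basal), 7476 (0.5 h), 5826 (2 h) and 5134 (12 h). Of 8 fibroblast markers 0 changed 2-fold at any time, and their summed signal lay between 29028 and 31269, although Thy1 was at most 14.6. Macrophage and leukocyte markers summed to between 230.1 and 256.5, endothelial markers to between 48.0 and 59.0 and epithelial markers to between 66.3 and 94.8 on the 4 arrays; Ptprc, the pan-leukocyte marker, was throughout under the floor of 9.08, the 30th percentile of all signals, to which lower signals were raised. Over all probe sets together the log2 ratio to basal had medians of -0.05 (0.5 h), -0.12 (2 h) and -0.20 (12 h). The 5′ probe set of 18S ribosomal RNA read 462, 382, 273 and 263 on the 4 arrays in order of time. The middle probe set read 234, 242, 160 and 210, and the 3′ probe set 198, 194, 108 and 141. The ratio of 3′ to 5′ signal of Actb ran from 1.21 to 1.26. The part of these shifts in the results below was not tested, and counts and medians are also given after loess, a smooth curve fitted to each array's log2 ratios that removes the shift common to genes of like signal.

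After 12 h of TNF nearly the whole group was lower. Of 35 genes 32 fell, which here means at least 2-fold lower on the deposited signals, and 0 rose; over all 16269 analysed genes 5.18% were 2-fold lower and 2.79% were 2-fold higher. The median log2 ratio of the group was -1.30, against -0.14 over all analysed genes. After loess 21 of 35 were at least 2-fold lower and 0 higher, beside 3.55% and 4.45% of all genes, and the group's median was -1.06. At 1.5-fold all 35 were lower (16.2% of all genes), and at 3-fold 4 were, Shcbp1, Dlgap5, Ckap2 and Hmmr (0.965% of all genes). Every one of the 35 was below basal at 12 h with the deposited signals and after loess, beside 62.9% and 44.7% of all genes. In RNA from a whole culture, fewer cells in a phase of the cycle and less RNA per cell cannot be told apart.

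At 0.5 h and 2 h no gene of the group had moved 2-fold. The count was 0 of 35 lower and 0 higher at 0.5 h, beside 2.96% and 2.55% of all genes, and 0 and 0 at 2 h, beside 3.6% and 2.58%. After loess the counts were again 0, beside 2.69% lower and 3.03% higher at 0.5 h and 3.1% lower and 3.49% higher at 2 h. Changes of 2-fold were also rare among the 6382 genes with a mean signal in the range of the 35. On deposited signals 0 of them were lower and 21 higher at 0.5 h, and 13 were lower and 34 higher at 2 h. Smaller differences ran one way by 2 h: 34 of 35 genes were below basal (61.9% of all genes), with a median log2 ratio of -0.36, and 34 of 35 were still below basal after loess (47.2% of all genes), with a median of -0.24. At 0.5 h 27 of 35 were below basal (55.7% of all genes), with a median of -0.10, and after loess 22 of 35 (47.2%), with a median of -0.05.

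In order of time the signals stood lower in steps. All 35 genes had their lowest signal at 12 h, and 27 of 35 were lower on each array than on the one before it; over all analysed genes these shares were 41.7% and 14.6%. After loess the counts were 35 and 21. Between 0.5 h and 2 h the median log2 change was -0.28 (-0.22 after loess), and between 2 h and 12 h it was -0.92 (-0.82 after loess). Against the 2 h array 11 of 35 genes were 2-fold lower at 12 h (3.12% of all genes), and 7 of 35 after loess (3.13%). Spread over the 1.5 h and 10 h of these intervals, the median was -0.19 per hour in the first and -0.09 per hour in the second. The hourly log2 change was lower, meaning more negative or less positive, in the first for 33 of 35 genes (57.6% of all genes). After loess the medians were -0.14 and -0.08 per hour, with 31 of 35 (51.1% of all genes). Over all analysed genes the deposited signals gave medians of -0.03 and -0.0034 per hour. The time from basal to 0.5 h, with a median change of -0.10 in the group, was left out of this hourly comparison. Dividing a difference between single arrays by a shorter time also enlarges its error, so no period of fastest fall is read from these values. The second interval has no array within it, so when in those 10 h the signals fell is unknown.

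**Figure D1:**
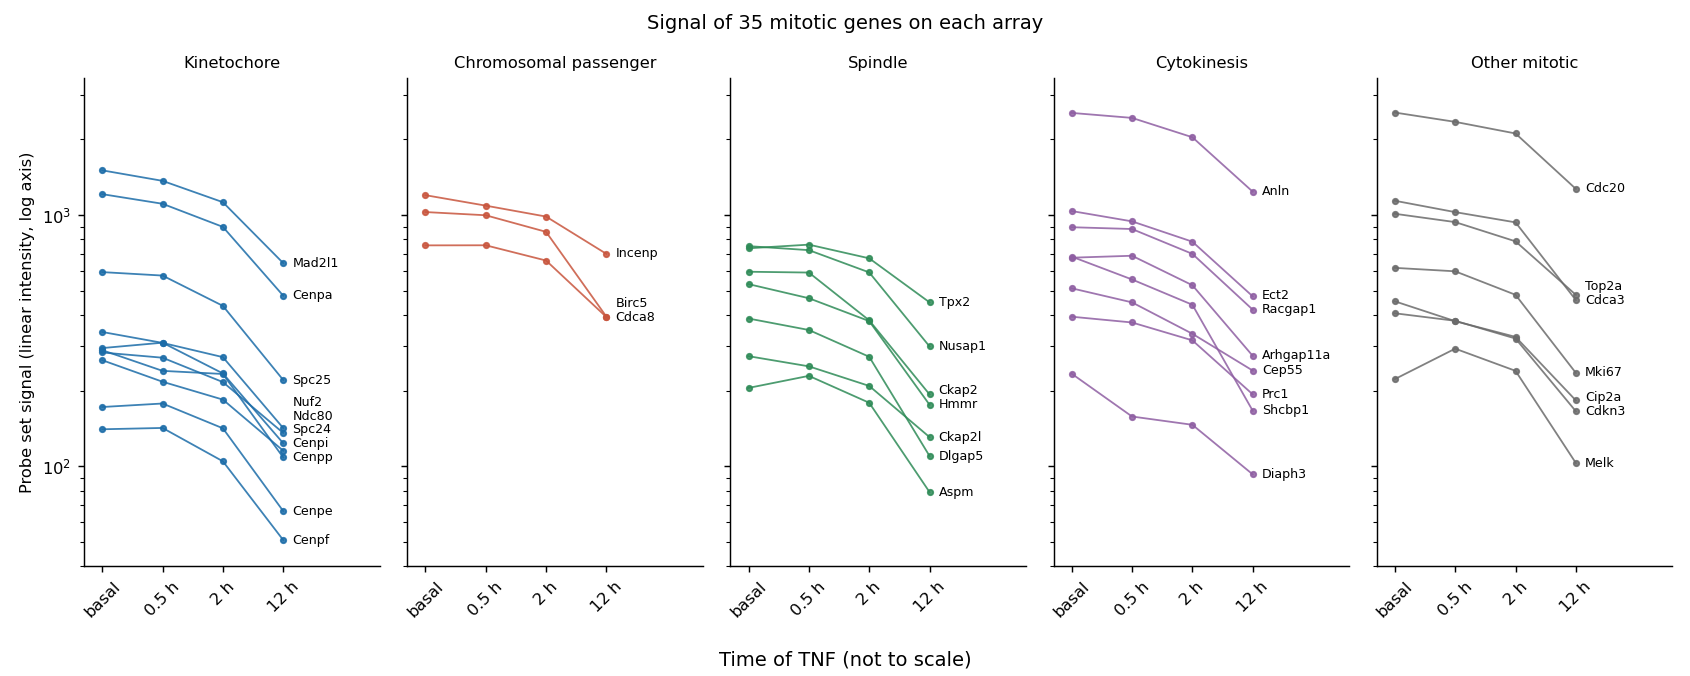
Signals of the 35 genes on the 4 arrays, by role; the vertical axis is linear probe set intensity on a log scale, the horizontal axis gives the arrays in order of time and not to scale, and each line is 1 gene. All 35 lines end at their lowest point at 12 h, and Melk is the one that lies above basal at 2 h.

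All 10 kinetochore genes of the group fell at 12 h, with log2 ratios from -1.47 to -1.06 and a median of -1.31. After loess 8 of 10 were 2-fold lower and the median was -1.08. Over all analysed genes 5.18% were 2-fold lower, and 3.55% after loess. Of 33 genes listed as other kinetochore genes 4 fell, and 2 after loess, so the result is one of the chosen 10. Cenpa, which encodes the histone H3 variant that marks the centromere, had signals of 1211 (basal), 1109 (0.5 h), 897 (2 h) and 477 (12 h). Its log2 ratio at 12 h was -1.34, and -1.12 after loess. Cenpi and Cenpp encode subunits of the constitutive network that sits on that chromatin. Cenpi read 264 (basal), 217 (0.5 h), 184 (2 h) and 115 (12 h), with log2 ratios of -0.52 at 2 h and -1.20 at 12 h. Of the kinetochore genes it had the lowest ratio at 2 h. Cenpp read 289.8 (basal), 239.7 (0.5 h), 233 (2 h) and 108 (12 h). Its ratio at 12 h was -1.42, and a further probe set with clear signal gave -1.52.

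Cenpe and Cenpf belong to the outer layer that assembles as cells enter mitosis. Cenpe, a kinesin motor that carries chromosomes along microtubules, read 172 (basal), 178 (0.5 h), 142 (2 h) and 66.2 (12 h). Cenpf, a large coiled-coil protein, read 140.3 (basal), 142 (0.5 h), 105 (2 h) and 50.8 (12 h). Neither was below basal at 0.5 h, and their log2 ratios at 12 h were -1.38 and -1.47. With the floor raised to 102, the 75th percentile of all signals, these 2 genes alone of the 32 no longer passed 2-fold.

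The Ndc80 complex, 4 proteins that form the main microtubule grip of the kinetochore, was represented by all its subunit genes. Signals of Ndc80 were 284 (basal), 270.4 (0.5 h), 216 (2 h) and 136 (12 h). For its partner Nuf2 they were 342 (basal), 309.8 (0.5 h), 272 (2 h) and 142 (12 h). Both genes were lower on each array than on the one before. Spc24, at 295 (basal), 310.3 (0.5 h), 234 (2 h) and 123 (12 h), was above basal at 0.5 h. Spc25 had 593 (basal), 574 (0.5 h), 435 (2 h) and 220.4 (12 h). All 4 subunits were thus below basal at 2 h and lowest at 12 h. The log2 ratios at 12 h were -1.06 for Ndc80, -1.27 for Nuf2, -1.26 for Spc24 and -1.43 for Spc25. After loess Ndc80 (-0.83) was the subunit that no longer passed 2-fold. Mad2l1 encodes Mad2, the checkpoint protein that holds back anaphase at unattached kinetochores, and read 1507 (basal), 1369 (0.5 h), 1125 (2 h) and 644 (12 h), a log2 ratio of -1.23 at 12 h.

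The chromosomal passenger genes of the group had the smallest share of falls among the roles, 1 of 3 (5.18% of all analysed genes). In this complex the scaffold Incenp, survivin (Birc5) and borealin (Cdca8) bring the kinase Aurora B to the centromere and later to the spindle midzone. Aurkb, the gene of Aurora B, was listed with the mitotic kinases and fell, with a log2 ratio of -1.21 at 12 h (-0.99 after loess). Birc5 fell 2.61-fold, with signals of 1028 (basal), 998 (0.5 h), 857 (2 h) and 394 (12 h). Incenp read 1200.2 (basal), 1090.3 (0.5 h), 986 (2 h) and 701 (12 h). Cdca8 read 757 (basal), 758 (0.5 h), 659 (2 h) and 393 (12 h), level with basal at 0.5 h. Their log2 ratios at 12 h, -0.78 and -0.95, were short of 2-fold, and after loess they were -0.56 and -0.72. The probe set used for Incenp is one that can bind related transcripts (its name ends in _x_at). A second Incenp probe set gave 173 at 12 h against 363 in basal cells (-1.07), and a further Cdca8 probe set gave 105 against 241 (-1.20), while another Cdca8 probe set gave -0.83. For both genes the call therefore depends on which probe set is read.

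Among spindle genes 6 of 7 fell at 12 h (5.18% of all analysed genes). Their median log2 ratio was -1.38, with a range from -1.82 to -0.72. After loess 5 of 7 were 2-fold lower (3.55% of all genes) with a median of -1.16. Dlgap5 encodes HURP, which stabilises the microtubule fibres that end at kinetochores. Its signals were 387 (basal), 349 (0.5 h), 273 (2 h) and 109.8 (12 h), a 3.53-fold fall and the second lowest ratio of the 35. Ckap2, a microtubule-associated protein, read 595 (basal), 590.3 (0.5 h), 381 (2 h) and 193 (12 h), and was 3.08-fold lower at 12 h. The related gene Ckap2l read 274 (basal), 249.8 (0.5 h), 209 (2 h) and 131 (12 h) and fell 2.10-fold; after loess it was at -0.84. Hmmr, a hyaluronan receptor that is also a protein of the spindle poles, had signals of 531 (basal), 466 (0.5 h), 378 (2 h) and 176 (12 h). Its log2 ratio at 12 h was -1.60, and the 3 further Hmmr probe sets with clear signal gave -1.32, -1.12 and -0.93.

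Aspm, which focuses microtubules at the poles, was a little above basal at 0.5 h and well below it at 12 h. It read 205 (basal), 229 (0.5 h), 179 (2 h) and 78.9 (12 h), a log2 ratio of -1.38 at 12 h. Nusap1, which crosslinks microtubules near chromosomes, read 752 (basal), 725 (0.5 h), 591 (2 h) and 299.8 (12 h), with -1.33 at 12 h. Tpx2, the activator of Aurora A that promotes microtubule growth around chromosomes, had the ratio nearest to 0 of the 35 at 12 h. Its signals were 737 (basal), 763 (0.5 h), 673 (2 h) and 449 (12 h), a log2 ratio of -0.72 at 12 h and -0.48 after loess, and its second probe set with clear signal gave -0.62.

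Every cytokinesis gene fell at 12 h on the deposited signals (5.18% of all analysed genes), most of them by little more than 2-fold. The 8 log2 ratios ran from -2.04 to -1.03 with a median of -1.11. After loess 3 of 8, Shcbp1, Diaph3 and Arhgap11a, were 2-fold lower (3.55% of all genes) and the median was -0.88. Shcbp1 encodes a partner of the centralspindlin protein Racgap1 at the midbody, the bridge between daughter cells. It read 683 (basal), 554 (0.5 h), 439 (2 h) and 166 (12 h). This 4.11-fold fall was the largest of the 35, at rank 27 of 16269 genes from the lowest ratio. After loess the rank was 55 of 16500. Among the 7311 genes above a signal of 102 on some array it was 13, on deposited signals. Racgap1 itself read 895 (basal), 880.0 (0.5 h), 701 (2 h) and 420.0 (12 h), a 2.13-fold fall, and its second probe set with clear signal gave -1.08.

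Prc1 bundles the antiparallel microtubules of the central spindle and Ect2 switches on RhoA at the division plane. Prc1 read 394 (basal), 373 (0.5 h), 317 (2 h) and 193 (12 h), a log2 ratio of -1.03 at 12 h. Ect2 read 1038 (basal), 944 (0.5 h), 783 (2 h) and 475 (12 h), with -1.13 at 12 h. Arhgap11a, which turns RhoA off, was near basal at 0.5 h. It read 676 (basal), 689 (0.5 h), 526 (2 h) and 275 (12 h), with -1.30 at 12 h. Anln encodes anillin, a scaffold of the contractile ring, and read 2552 (basal), 2437 (0.5 h), 2041 (2 h) and 1239 (12 h), a log2 ratio of -1.04 at 12 h. Cep55 brings the membrane-cutting machinery to the midbody. Its signals were 511 (basal), 449 (0.5 h), 337 (2 h) and 240.3 (12 h). Its log2 ratio was -0.60 at 2 h, and its further step between 2 h and 12 h was -0.49. Diaph3, a formin that builds actin filaments, had the lowest ratio of the group at 0.5 h. It read 234 (basal), 158 (0.5 h), 146 (2 h) and 92.8 (12 h), so its log2 ratio was -0.57 after 0.5 h, -0.68 after 2 h and -1.33 after 12 h.

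The remaining 7 genes act elsewhere in mitosis, and all 7 fell at 12 h (5.18% of all analysed genes). Their log2 ratios ran from -1.39 to -1.01 with a median of -1.30. After loess 4 of 7 were 2-fold lower (3.55% of all genes) and the median was -1.06. Mki67 encodes Ki-67, which coats mitotic chromosomes and is widely stained to count cycling cells. It read 616 (basal), 597 (0.5 h), 481 (2 h) and 235 (12 h), a 2.62-fold fall. Top2a encodes the enzyme that untangles sister DNA and read 1012 (basal), 937 (0.5 h), 786 (2 h) and 481 (12 h), a log2 ratio of -1.07 at 12 h. Cdc20, which activates the anaphase-promoting complex, read 2560.2 (basal), 2350.3 (0.5 h), 2113 (2 h) and 1271 (12 h). At -1.01 Cdc20 only just met the 2-fold rule, and its further probe sets with clear signal gave -1.30 and -1.45; the one used ends in _x_at.

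Cdca3, an adaptor in the degradation of the mitotic inhibitor Wee1, read 1140.3 (basal), 1027 (0.5 h), 935 (2 h) and 459 (12 h). Cdkn3, a phosphatase that acts on cyclin-dependent kinases, read 406 (basal), 379 (0.5 h), 322 (2 h) and 165 (12 h). For Cip2a, an inhibitor of the phosphatase PP2A, the signals were 454 (basal), 378 (0.5 h), 327 (2 h) and 183 (12 h). The log2 ratios at 12 h were nearly the same, at -1.31 for Cdca3, -1.30 for Cdkn3 and -1.31 for Cip2a. Melk, a kinase of the AMPK family, followed another course: it read 222 (basal), 294 (0.5 h), 239.7 (2 h) and 103 (12 h), so it was above basal at 0.5 h (log2 ratio 0.40) and at 2 h (0.11) before it was below basal at 12 h (-1.11). It is the 1 gene of the 35 that was above basal at 2 h.

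**Figure D2:**
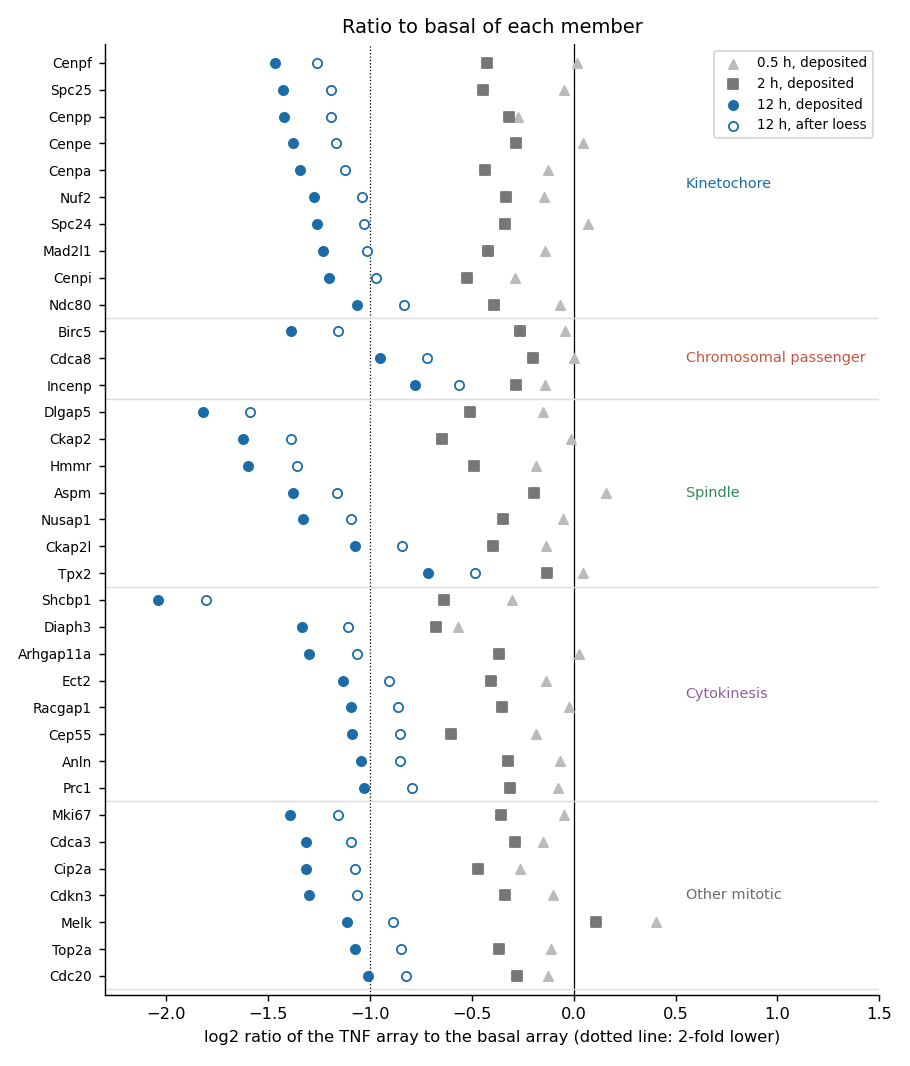
Log2 ratios to the basal array of each gene, by role and ordered within a role by the ratio at 12 h; triangles are 0.5 h, squares 2 h, filled circles 12 h on deposited signals and open circles 12 h after loess. Filled circles of 32 genes lie at or left of the dotted line at -1, and open circles of 21 do.

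The roles overlapped in their ratios. The medians at 12 h were -1.31 for kinetochore, -0.95 for passenger, -1.38 for spindle, -1.11 for cytokinesis and -1.30 for the other genes, and after loess they were -1.08, -0.72, -1.16, -0.88 and -1.06 in the same order. When the passenger genes were counted with the kinetochore and Prc1 with the spindle, the medians were -1.27 for the kinetochore, -1.35 for the spindle and -1.13 for cytokinesis. With the mean of all probe sets of a gene the order turned: the medians were -1.24 for kinetochore, -0.99 for passenger, -1.01 for spindle, -1.14 for cytokinesis and -1.11 for the other genes. With probe sets ending in a plain _at they were -1.23 for kinetochore (9 genes), -1.33 for spindle (7 genes) and -1.19 for cytokinesis (4 genes). In that setting the spindle median was again the lowest. No order of the roles is read from these medians. As a measure of technical error, the 2 brightest probe sets of 1 gene, both above a signal of 102 on some array, differed at 12 h by a median of 0.12 (log2) over the 9 genes of the group that have them, and by at most 0.30, for Incenp. Probe sets on 1 array are not replicates of a condition, and this difference between probe sets of single genes is no error for the median of a role.

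Several probe sets read 21 of the 35 genes, which gives 40 further probe sets. Of these, 13 reached a signal of 102 on some array, for 9 genes; all 13 were below basal at 12 h, with log2 ratios from -1.52 to -0.62, and 9 were at least 2-fold lower. The other 27 had low signals, and 18 of them were below basal. Their ratios scattered from -4.82 to 2.85 without a floor. The highest came from a Cenpa probe set that read 23.7 at 12 h against 3.30 in basal cells, under the floor.

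Among genes of like signal the group stood at the low end at 12 h. The comparison took the 6382 genes whose mean log2 signal lay within that of the 35. Their log2 ratio at 12 h had a median of -0.22 and a 5th percentile of -0.81, and 33 of the 35, all but Incenp and Tpx2, lay below that percentile; after loess the percentile was -0.58 and the same 33 lay below it. Of the 6382 genes 2.43% were 2-fold lower, and 1.05% after loess. At 2 h 7 of the 35 lay below the 5th percentile of -0.49: Cenpi, Hmmr, Dlgap5, Ckap2, Cep55, Diaph3 and Shcbp1. At 0.5 h 1 did, Diaph3. These counts are descriptions of 4 arrays, for genes chosen with earlier results known, and the 35 genes are themselves among the 6382.

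**Figure D3:**
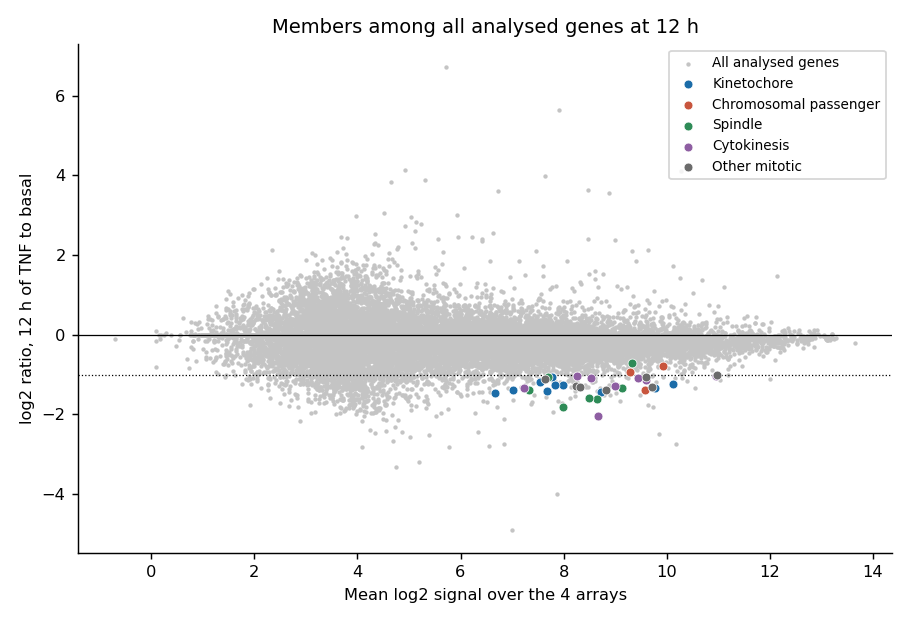
Log2 ratio of 12 h of TNF to basal (vertical axis) against the mean log2 signal over the 4 arrays (horizontal axis) for all 16269 analysed genes in grey, with the 35 genes coloured by role. The coloured points lie between -2.04 and -0.72, below most grey points of like signal.

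Other genes of the division cycle were lower at 12 h to differing degrees. Over all analysed genes 5.18% were 2-fold lower, and 3.55% after loess. Of 22 mitotic kinase, cyclin and related genes 12 fell and 0 rose (8 fell after loess), and the median of their log2 ratios was -1.06; the largest were Cdc25c (-1.82), a phosphatase that starts mitosis, Haspin (-1.60, to a signal of 16.5), Aurka (-1.52) and Bub1 (-1.39). Of 12 mitotic kinesins 3 fell and 0 rose, also after loess, with a median of -0.85; they were Kif23 (-1.58), Kif11 (-1.52) and Kif20a (-1.42), motors of cytokinesis and of spindle assembly. Of 16 condensin and cohesin genes 4 fell, with a median of -0.70, led by the condensin subunit Smc4 (-2.50) and followed by Smc2 (-1.17), Ncapg (-1.16) and Ncapg2 (-1.02). After loess Smc4 was the 1 of these 16 genes still 2-fold lower.

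The genes listed as other kinetochore genes differed less from basal. Kinases that also act at kinetochores were listed with the mitotic kinases: Bub1 (-1.39), Plk1 (-1.17), Ttk (-1.02) and Bub1b (-0.88). The kinetochore list also counts Cenpj, the gene of a centriole protein. The contrast with the group therefore depends in part on how the lists were drawn. This kinetochore list holds many subunits that stay at the centromere through the whole cycle. Whether this has a part in the smaller differences was not tested. In the chosen group the genes of centromere chromatin, Cenpa (-1.34), Cenpi (-1.20) and Cenpp (-1.42), fell at 12 h. That group was also chosen with earlier results of these data known. Of the 33 analysed genes of the list outside the group 4 fell (5.18% of all analysed genes) and 0 rose at 12 h. Their median log2 ratio was -0.54, and 32 of 33 were below basal (62.9% of all genes). After loess 2 of 33, Ska1 and Mad1l1, were 2-fold lower and 25 of 33 were below basal (44.7% of all genes). The 4 were Ska1 (-1.58), whose complex helps Ndc80 hold microtubules, Cenph (-1.06), Kntc1 (-1.05) and the checkpoint gene Mad1l1, which read under the floor at 12 h against 53.7 in basal cells and was at least 5.91-fold lower. Of 23 G1/S and replication genes 2 fell, Pola1 (-1.27) and Tk1 (-1.06), with a median of -0.65. After loess Pola1 alone passed. Beside the 5.18% of all genes, and 3.55% after loess, these G1/S counts are not read as a result. Of 20 analysed genes of the interphase cytoskeleton, such as tubulins and RhoA, 0 changed 2-fold, also after loess, with a median of -0.23. After loess the medians were -0.84 for kinases and cyclins, -0.62 for kinesins, -0.46 for condensin and cohesin, -0.35 for the other kinetochore genes, -0.42 for G1/S and replication and -0.07 for the interphase cytoskeleton.

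The regulators of this programme were described in the same way. The MuvB complex represses late cell cycle genes in resting cells with the pocket proteins and E2F factors, and activates them with Mybl2 and Foxm1. Of 22 such genes 1 fell at 12 h, E2f8 (-1.97), and 0 rose, with a median of -0.40. Over all genes 5.18% were 2-fold lower. The signals of E2f8 were low, at 65.3 in basal cells and 16.6 at 12 h. After loess E2f8 still passed and the median of the 22 was -0.19. Foxm1 read 139 (basal), 119 (0.5 h), 113 (2 h) and 75.8 (12 h), a log2 ratio of -0.88 at 12 h, short of 2-fold. Mybl2 read 78.2 (basal), 71.8 (0.5 h), 75.4 (2 h) and 58.7 (12 h) (-0.41). Among 7 genes of inhibitors of cyclin-dependent kinases, Cdkn2c fell to 179 at 12 h against 361 in basal cells and 0 rose; Cdkn2b was higher short of the rule (0.57), and Cdkn1a, a target of p53, was at -0.58. After loess Cdkn2c was at -0.78 and 0 of the 7 passed.

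**Figure D4:**
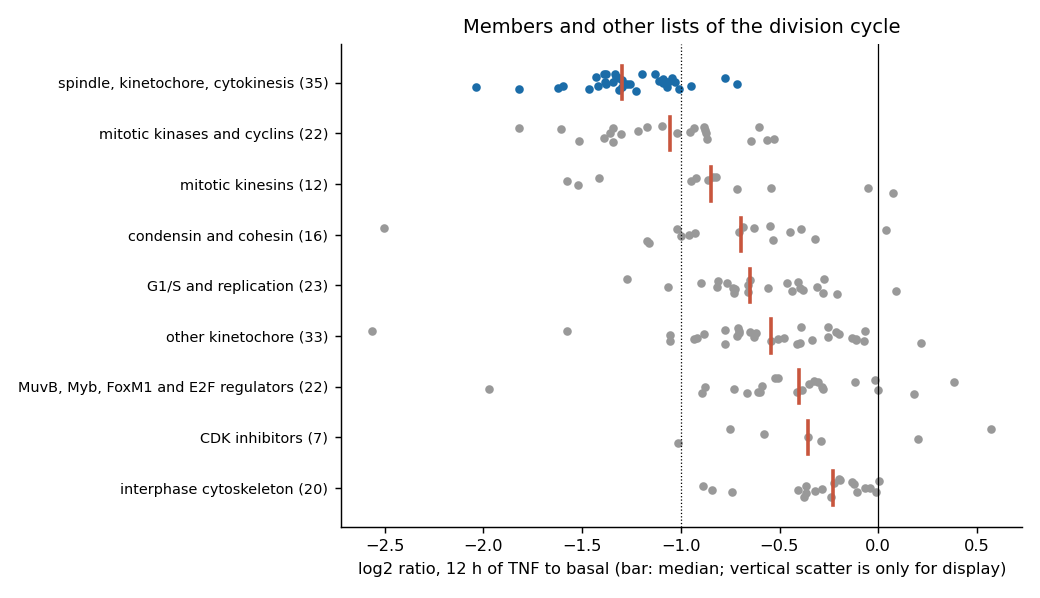
Log2 ratios of 12 h of TNF to basal for the 35 genes (top row) and for 8 other lists, 1 point per analysed gene with the number of genes in brackets; the orange bar is the median and vertical scatter is for display only. Medians run from -1.30 for the 35 genes to -0.23 for the interphase cytoskeleton.

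Many promoters of these genes hold the same short motifs, which had no part in choosing the genes. Late cell cycle genes are known for a cell cycle homology region (CHR), which the MuvB complex binds near the start of transcription, and for CCAAT boxes upstream of it, which bind the factor NF-Y. Promoters from RefSeq (GRCm38.p6), from 250 bases before to 50 after each start, were found for 30 of the 35 genes, as 33 promoters, since Cep55, Ect2 and Prc1 have 2 overlapping ones each. Dlgap5, Incenp, Shcbp1, Spc24 and Tpx2 had no entry. The NF-Y motif was searched as CCAAT on both strands. The CHR was searched in a first form, TTTGAA, also on both strands. Its second form in the search was TTCGAA, which reads the same on either strand; none of these motifs contains another.

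The letters of a CHR stood in 23 of 33 promoters of the group (69.7%), against 19.2% of all 32851 promoters in the table and 14.6% of promoters of the analysed genes. Within 50 bases of the start they stood in 19 of 33 (57.6%), against 5.31% of all promoters. A CCAAT box stood in 23 of 33 (69.7%), against 37.4% of all, and both kinds of motif in 19 of 33 (57.6%), against 7.52% of all. In promoters of the mitotic kinesin list the CHR was found in 10 of 11, in the kinase and cyclin list in 12 of 17, in the other kinetochore genes in 15 of 37, in G1/S and replication genes in 2 of 20 and in interphase cytoskeleton genes in 2 of 19. A match is a description of letters, and binding was not measured here.

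**Figure D5:**
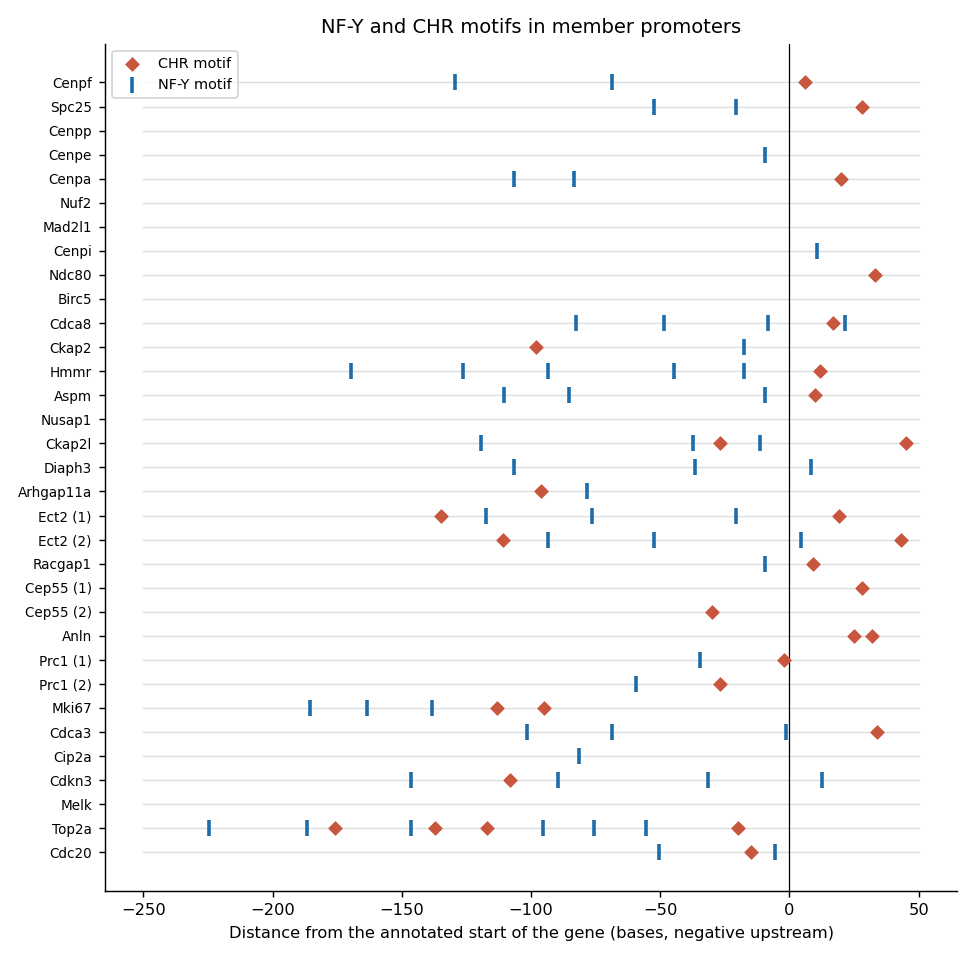
Positions of CCAAT boxes (NF-Y motif, blue bars) and CHR letters (orange diamonds) in the 33 promoters of the group, 1 row per promoter, by role and then by the ratio at 12 h; the horizontal axis is the distance in bases from the annotated start. CHR letters lie within 50 bases of the start in 19 rows, and some rows hold neither motif.

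The promoters below were taken in each role from the gene with a single promoter entry and the lowest ratio at 12 h, so that they show the variety behind these shares. Positions count bases from the start, negative before it. Capitals mark CCAAT boxes (ATTGG on the other strand) and CHR letters. Cenpf (chr1:189688037-189688336, minus strand) holds 2 CCAAT boxes upstream and a CHR that begins at position 3. Birc5 (chr11:117848987-117849286, plus strand) holds neither set of letters in this window. Ckap2 (chr8:22185770-22186069, minus strand) holds a CHR at position -101 and 1 CCAAT box at -20. Diaph3 (chr14:87141175-87141474, minus strand) holds 3 CCAAT boxes and no CHR letters. Mki67 (chr7:135716330-135716629, minus strand) holds 3 CCAAT boxes followed by 2 CHR matches, which begin at positions -116 and -98.
Cenpf: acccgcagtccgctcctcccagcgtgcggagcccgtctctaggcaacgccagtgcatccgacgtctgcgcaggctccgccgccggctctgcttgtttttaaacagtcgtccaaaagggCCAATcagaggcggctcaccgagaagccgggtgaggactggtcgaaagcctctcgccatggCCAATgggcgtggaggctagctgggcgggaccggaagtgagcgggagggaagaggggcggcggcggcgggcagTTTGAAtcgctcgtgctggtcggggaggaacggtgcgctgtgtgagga
Birc5: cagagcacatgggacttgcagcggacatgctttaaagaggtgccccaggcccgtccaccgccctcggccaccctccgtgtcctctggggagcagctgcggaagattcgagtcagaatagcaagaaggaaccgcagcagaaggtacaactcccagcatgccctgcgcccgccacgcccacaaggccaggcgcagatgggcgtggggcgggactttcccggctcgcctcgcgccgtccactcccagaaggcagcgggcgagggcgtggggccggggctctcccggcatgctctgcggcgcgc
Ckap2: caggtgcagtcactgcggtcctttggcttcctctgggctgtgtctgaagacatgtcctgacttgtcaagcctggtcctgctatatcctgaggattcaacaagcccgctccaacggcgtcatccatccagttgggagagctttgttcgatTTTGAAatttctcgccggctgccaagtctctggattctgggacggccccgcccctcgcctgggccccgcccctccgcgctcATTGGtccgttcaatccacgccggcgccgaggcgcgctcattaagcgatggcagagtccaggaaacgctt
Diaph3: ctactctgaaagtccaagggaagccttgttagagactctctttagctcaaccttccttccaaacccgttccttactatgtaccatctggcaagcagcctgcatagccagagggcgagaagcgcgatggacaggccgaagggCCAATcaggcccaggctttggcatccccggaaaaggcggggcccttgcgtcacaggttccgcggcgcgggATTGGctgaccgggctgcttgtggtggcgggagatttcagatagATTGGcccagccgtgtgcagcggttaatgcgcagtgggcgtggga
Mki67: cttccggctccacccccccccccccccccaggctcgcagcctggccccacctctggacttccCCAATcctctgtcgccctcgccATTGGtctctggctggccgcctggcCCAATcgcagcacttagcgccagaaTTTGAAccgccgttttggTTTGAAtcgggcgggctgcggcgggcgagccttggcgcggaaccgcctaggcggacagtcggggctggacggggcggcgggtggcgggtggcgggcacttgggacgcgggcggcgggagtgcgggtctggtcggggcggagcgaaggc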

How the data were processed

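The authors deposited 1 linear intensity for each probe set on each array, all above 0. Arrays were Affymetrix Mouse Genome 430 2.0, made from 8 µg RNA labelled with biotin, per the labels' protocols. How the authors computed or scaled signals is not given in the sources used here. There are 45101 probe sets per array, 64 of them controls, which were left out. GEO's platform annotation pairs 34958 probe sets with 1 gene and 932 with several; 0 symbols changed through GRCm38.p6 gene identifiers.

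Each gene was read from its probe set of highest mean log2 signal. A floor at the 30th percentile of the signals (9.08) replaced lower ones, and 16269 genes above it on some array were analysed; all 35 members were above it on all 4 arrays. A gene rose or fell at 2-fold or more; with 1 array per group this has no test, and the number of arrays limits the precision. All 35 members and, in other lists, the 4 largest changes past 2-fold at 12 h are named. Foxm1, Mybl2, Cdkn2b, Cdkn1a, Thy1, Ptprc, Aurkb, Plk1, Ttk, Bub1b and Cenpj were added after their values were seen. Of the gene lists, 10 genes had no probe set named on the array, among them 6 of 26 of the interphase cytoskeleton.

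Loess (limma 3.58.1 in R 4.3.3, span 0.3, 4 iterations) fitted each TNF array's log2 ratio to basal against mean log2 signal over all non-control probe sets, before the floor. Other computing used Python 3.11.15, numpy 2.4.6 and pandas 2.3.3, and the steps were tested on simulated data. Alternatives were other floors, scalings, probe set choices and folds. The measure of technical error from probe sets, the comparison with genes of like signal, the 50-base window for motifs and the choice of printed promoters were set after seeing the data. Members and lists were chosen with earlier results of these data known.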

Additional observations from a re-analysis of the deposited data

How the results depend on the processing

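A value counted as moved when it shifted by more than 0.12 (log2), the median difference between probe sets of 1 gene. That figure comes from 9 genes of the group and is no error for a median, so the label is a description. With 1 array per group no array could be left out, and no paired analysis was possible because no group has replicates. Scaling and the choice of probe set both moved the results. Of 35 genes 32 fell at 12 h on deposited signals. With median centring 22 fell, with quantile normalization 21, with loess 21 and with the mean of probe sets 23. The group's median at 12 h was -1.14 with median centring, -1.05 with quantile normalization, -1.06 with loess and -1.15 with the mean of probe sets. With median centring, quantile normalization and loess the role medians were -1.15, -1.09 and -1.08 for kinetochore, -0.80, -0.70 and -0.72 for passenger, -1.23, -1.17 and -1.16 for spindle, -0.96, -0.87 and -0.88 for cytokinesis and -1.14, -1.08 and -1.06 for the other genes. With the mean of probe sets the spindle median was -1.01, that of the other genes -1.11, kinetochore -1.24 and cytokinesis -1.14, so the spindle no longer had the lowest median and the order of the roles turned. A 3-fold rule left 4 genes lower at 12 h, Hmmr, Dlgap5, Ckap2 and Shcbp1, and a 1.5-fold rule gave 4 lower at 2 h.

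Only probe sets ending in a plain _at turned directions. They exist for 29 of the 35 genes and often have low signal. With them the log2 ratio at 12 h was 1.38 for Cenpa, 0.32 for Hmmr, 0.46 for Cdca3 and 0.39 for Cip2a; the genes 2-fold higher numbered 3 (0.5 h), 1 (2 h) and 1 (12 h), the passenger median was -1.14 and that of the other genes -1.11. The cause was not tested. With the floor at the 75th percentile Cenpe (-0.75) and Cenpf (-0.46) no longer passed 2-fold, since their 12 h signals were raised to 102. Single genes no longer past 2-fold numbered 11 with loess, 11 with quantile normalization, 10 with median centring and 9 with the mean of probe sets. The other 111 values of counts and medians stayed within 0.12 or, for counts, within 1.5 times. Part of that tally is no check. The 35 genes never read below 50.8, so having no floor, or any floor under that signal, could not alter their values. Of the floors tried, the one at the 75th percentile alone changed them. The rule of 1.5 times also let the count of genes lower at 12 h drop from 32 to 22 (median centring) or 23 (mean of probe sets). Over all genes the number 2-fold lower at 12 h was 842, against 2338 with no floor, 1552, 304 and 126 with floors at the 20th, 50th and 75th percentile, and 586 with loess. With 1 array per group, the error of every ratio is unknown, and low signals are the least certain.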
